A study of Mus musculus with 4 samples.

Results

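Of the 34745 genes counted in cultured mouse macrophages, 164 were at least 3 times as high in the lower of the 2 libraries labelled KO as in the higher of the 2 libraries labelled WT. These 164 genes are described here. They were chosen on this very difference: CPM are a gene's counts per 1000000 counts of its library, the lowest KO value had to be 1 CPM or more, and genes that start in a 10 Mb window of chromosome 11 around the targeted gene, the collagens and 14 genes given by name were then left out. Values of the 2 genotypes are therefore given for these genes as a description, with no test. Before anything was left out, the rule took 182 of the 11304 genes with at least 1 CPM in both KO libraries (1.61%), and 18 of these 182 were removed, 6 as collagens, 2 for their position and 10 by name. The mirror rule, with the lower WT library at least 3 times the higher KO library, took 15 of 10923 genes (0.137%). Nothing is read from these shares about the 164 genes, since the same contrast chose them.

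RNA sequencing was performed on bone marrow-derived macrophages (BMDMs) of 2 genotypes. The control libraries, labelled WT, came per the study's text from mice with a loxP-flanked G3bp1 gene (G3bp1 f/f), and the libraries labelled KO came from such mice crossed to Lyz2-Cre (G3bp1 mac-/-), so both genotypes carried the floxed allele and the Cre was carried by the KO mice. Lyz2-Cre is active in the myeloid lineage, so in cells of other lineages the allele is not expected to be recombined. G3bp1 encodes a scaffold protein of stress granules, the cytoplasmic bodies in which untranslated mRNA gathers under stress. Each genotype had 2 libraries, numbered 1 and 2, and the labels give neither the animals and cultures behind them nor the age of the mice and name no treatment. Sets of 4 values below always run in the order WT 1, WT 2, KO 1, KO 2.

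Macrophages grown from bone marrow differentiate from blood-forming precursors in the presence of a growth factor. Marrow also holds stromal cells, which make collagen-rich matrix, adhere and contract, and those cells do not come from the blood lineage. Decorin, the collagen chaperone HSP47, N-cadherin and desmin belong to stromal and muscle cells rather than to macrophages in textbook accounts, and cyclins and mitotic kinesins mark dividing cells of any type. In a bulk library, more cells of a type and more RNA per cell cannot be told apart.

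The libraries held 17004167, 16926884, 16724241 and 19747909 counts. G3bp1 itself had 99.4, 170, 78.2 and 116 CPM, so its counts overlapped between the libraries labelled WT and KO. A count over the whole gene does not show whether the floxed part was read. The labels' grouping is used throughout, and every direction below is between libraries so labelled. The 13 macrophage marker genes checked had counts in every library and summed to 27734, 25267, 25414 and 26705 CPM, and none of them was among the 164. Chi-square per gene was lowest between WT 2 and KO 2, at 23.1, and was 85.7 between WT 1 and KO 1. Within a genotype it was 121 for WT and 87.6 for KO. The most alike libraries thus shared a replicate number and not a genotype. All pairs were far above sampling noise, so none was a copy of another and each was counted as a separate sample. This does not show that the samples are independent.

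The 164 genes made up a small part of each library. Their counts added up to 5245, 6554, 29690 and 31308. This was 0.0308% (95% exact binomial interval 0.030% to 0.0317%) and 0.0387% (0.0378% to 0.0397%) of the counts in WT, and 0.178% (0.176% to 0.180%) and 0.159% (0.157% to 0.160%) in KO. These intervals cover counting error only, since reads had no molecular identifiers. Together with the 18 genes left out, the shares were 0.0396%, 0.0486%, 0.235% and 0.203%. Per length, the median of the members' mean KO level was 0.619 FPKM, against 4.45 FPKM over all 11304 genes with at least 1 CPM in both KO libraries, and 99 of the 164 were under 1 FPKM. Most members were thus weakly expressed also in the libraries where they were high. In WT, 106 members had a mean under 1 CPM, and 13 had at most 3 counts in each library.

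The gap between the genotypes was mostly near the limit of the rule. The lowest KO over the highest WT value was under 4 in 92 members and 10 or more in 5 members. Just inside the limit were Plk1, Ptprf and Cyp1b1, with ratios of 3.0, 3.0 and 3.01. Just outside it were Top2a, Ehd2 and Farp1, with 3.0, 2.98 and 2.98; Top2a, a DNA topoisomerase of dividing cells, had 7.82, 7.21, 30.0 and 23.4 CPM. At the floor of 1 CPM, Tmem47, 1010001N08Rik and Tspan6 were inside with 20 counts each in KO 2, while Fbln1, Madcam1 and Capn6 were outside with lowest KO values of 0.962, 0.957 and 0.911 CPM. The libraries' composition moved the limit too. With TMM-scaled totals 128 members were kept, and with DESeq2 size factors 120.

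**Figure D1:**
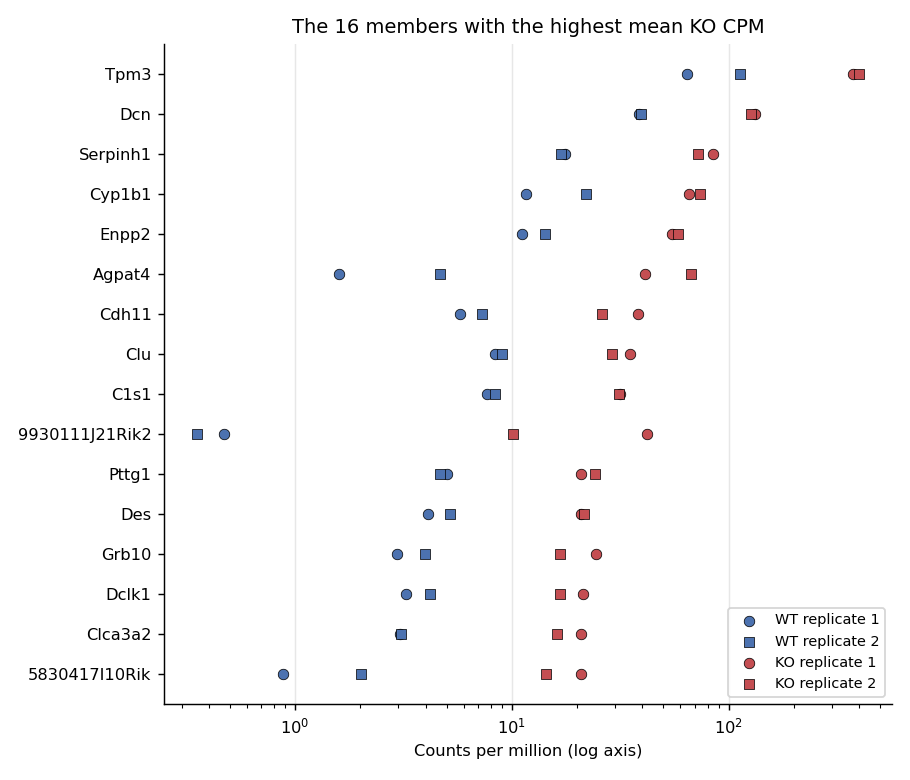
CPM (log axis) of the 16 members with the highest mean KO level, with 1 point per library (blue WT, red KO, circles replicate 1, squares replicate 2). By the rule, every red point lies above every blue point of its row. Tpm3 at the top runs from 64.4 to 401 CPM, and 9930111J21Rik2 has the widest gap between its KO libraries.

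Tpm3, a tropomyosin that stabilises actin filaments, had the highest level of all members on the CPM scale, 64.4, 112, 373 and 401 CPM. Its gene (ENSMUSG00000027940, chr3:90072649-90100902 on GRCm38) has a near-identical intronless copy on chromosome 14, Tpm3-rs7, which had 293, 415, 164 and 189 CPM and so went the other way. Summed, the 2 loci had 357, 527, 538 and 590 CPM, and the lowest KO sum was 1.02 times the highest WT sum. The pair together would not have met the rule. How reads were split between the 2 loci is not given in the sources used here, and Tpm3 is therefore uncertain as a member. It held 1095, 1903, 6245 and 7921 of the members' 5245, 6554, 29690 and 31308 counts.

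Extracellular matrix and the handling of collagen accounted for 25 members. Their summed level was 81.5, 85.0, 375 and 326 CPM, which is 4.21 times higher in the mean of the KO libraries. Classes of function used here were written after the members were known, so their counts are descriptive. Dcn, the small proteoglycan decorin that binds collagen fibrils, had 38.7, 39.3, 133 and 127 CPM, and per length it was the highest member, with 18.6, 18.9, 63.8 and 60.8 FPKM. Ogn, a proteoglycan of the same leucine-rich family, had 1.12, 0.709, 6.64 and 4.10 CPM. Both WT libraries held decorin at 38.7 and 39.3 CPM, so this transcript was present in both genotypes and not gained in KO.

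Secreted collagen needs helpers inside the cell, and several of these were members beside the collagens that the rule leaves out. Serpinh1, the endoplasmic reticulum chaperone HSP47 that is specific for procollagen, had 17.6, 16.8, 85.0 and 72.2 CPM. The peptidyl-prolyl isomerase Fkbp10, which works on procollagen, had 0.882, 1.00, 7.65 and 5.98 CPM. P3h4, a component of the collagen-modifying complex, had 1.94, 1.95, 9.27 and 7.55 CPM. Bmp1, the protease that removes the procollagen C-propeptide, had 1.23, 3.19, 13.4 and 12.5 CPM. All 4 were at least 3.87-fold apart by the rule's ratio, and P3h4 and Fkbp10 lie next to each other on chromosome 11, separated by 861 bases and read in opposite directions. Fkbp10 also overlaps Nt5c3b, which had 356 KO counts against 246 for Fkbp10.

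Basement membrane and fibre genes were present at lower levels. Hspg2, the heparan sulphate proteoglycan perlecan, had 1.41, 1.3, 8.43 and 6.03 CPM. Lamb1, a laminin chain, had 1.18, 1.36, 7.24 and 4.96 CPM, and Pxdn, the peroxidase that cross-links collagen IV, had 0.353, 0.414, 4.48 and 3.19 CPM. Ltbp2, which associates with fibrillin fibres, had 0.470, 1.00, 5.32 and 4.66 CPM. Of the collagen receptors, Ddr2 had 1.41, 1.89, 7.24 and 7.70 CPM and Ddr1 had 1.47, 1.00, 7.41 and 5.77 CPM. The endocytic collagen receptor Mrc2 had 0.235, 0.295, 2.03 and 1.37 CPM, and Antxr1, a transmembrane matrix-binding protein, had 0.647, 0.827, 3.71 and 2.94 CPM. These genes had between 4 and 32 counts in each WT library, which is a small base for the ratios.

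In a list of 59 matrix genes other than collagens, 6 were members (Dcn, Ogn, Lamb1, Hspg2, Cthrc1 and Pxdn). The other 27 genes of the list that passed the filter had a median of 0.82 on the log2 scale for KO over WT, against 0.035 over the 12236 genes tested that did not meet the rule, and 23 of the 27 were above 0. The edgeR quasi-likelihood test over all genes called 0 of them, 12 had an unadjusted p under 0.05 and were higher in KO, and the edgeR exact test called 1 and DESeq2 2. Nid1, the basement membrane linker nidogen, had a log2 fold change of 1.83 (adjusted p = 0.28, edgeR quasi-likelihood). Among 46 matrix enzymes, 3 were members (Serpinh1, Fkbp10 and Bmp1), and the other 28 tested had a median log2 change of 0.17, with 0 called, 7 higher at an unadjusted p under 0.05, 1 called by the exact test and 2 by DESeq2.

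Over all genes, the quasi-likelihood test called 0 genes higher (0%) and 0 lower (0%) at an adjusted p under 0.05 and a log2 fold change past 1. At an unadjusted p under 0.05, 4.64% of genes were higher and 1.99% lower. The exact test called 1.16% higher and 0.242% lower, and DESeq2 1.1% higher and 0.362% lower. These shares include the genes that met the rule, which the list counts do not. Without them, 12236 genes were left, of which 3.22% were higher and 2.02% lower at an unadjusted p under 0.05. The quasi-likelihood test called 0 of these (0%), the exact test called 0.204% higher and 0.245% lower, and DESeq2 0.278% higher and 0.368% lower, and these shares are the background for the list counts. Each of these tests took genotype as the only term. A fit that also took the replicate number called more genes and is given at the end.

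The second large class was the cytoskeleton and contraction, with 25 members that summed to 86.5, 138, 508 and 513 CPM. Tpm3, which is uncertain as a member, was the largest part of this, with 64.4, 112, 373 and 401 CPM. Des, the intermediate filament desmin of muscle cells and pericytes, had 4.12, 5.20, 20.7 and 21.6 CPM. Nes, the intermediate filament nestin of progenitor and marrow stromal cells, had 1.94, 2.01, 9.03 and 7.29 CPM. Tagln, the actin-binding protein transgelin of smooth muscle, had 1.76, 1.65, 5.80 and 5.37 CPM, and its locus overlaps Pcsk7, which had 964 KO counts against 203. Myl9, a regulatory myosin light chain, had 3, 3, 19 and 22 counts, and Mylk, the kinase of that light chain, 6, 3, 35 and 22 counts. Of these, desmin and nestin were counted at more than 30 reads in each WT library, while Myl9 had 3 in each.

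Links between actin, adhesions and microtubules were also in this class. Fermt2, the integrin activator kindlin-2, had 1.94, 2.36, 10.5 and 8.46 CPM. Phldb2, which anchors microtubules at adhesions, had 1.53, 1.77, 13.7 and 10.3 CPM. Microtubule genes known from neurons were Dclk1 with 3.23, 4.19, 21.3 and 16.6 CPM, Dpysl3 with 1.18, 2.36, 9.21 and 7.24 CPM, Map1b with 0.412, 0.591, 2.45 and 1.82 CPM and the tubulin Tubb3 with 0.765, 0.591, 3.23 and 2.79 CPM. Mark1, a kinase of microtubule-associated proteins, had 3, 1, 31 and 34 counts, and both KO libraries were at least 9.71-fold higher than 3 counts in a WT library.

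Genes under the transcription co-activator YAP and serum response factor, which answer to adhesion and contraction, were tracked by a list of 38 genes that had 5 members. Yap1 itself had 1.29, 1.00, 4.90 and 3.90 CPM. Ctgf, a matricellular target of YAP, had 4, 5, 38 and 25 counts, and Ankrd1, a nuclear ankyrin-repeat protein of muscle and stroma, had 3, 5, 42 and 64 counts, with a ratio of 8.50. Tagln and Myl9 were the other two. Acta2, which met the rule and was left out by name, is not counted here. Of the 27 other genes tested, 22 were above 0, and their median log2 change was 0.30. The quasi-likelihood test called 0 of them, 8 were higher at an unadjusted p under 0.05, the exact test called 1 and DESeq2 2. Wwtr1, the YAP paralogue TAZ, had a log2 fold change of 1.86 (adjusted p = 0.30), and Amotl1, an angiomotin that binds YAP, 1.97 (adjusted p = 0.31), both by edgeR quasi-likelihood.

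The promoter of Ankrd1 is shown because it holds the TEAD motif, CATTCC, that YAP's partner proteins recognise. The sequence is the 250 bases before the RefSeq start on GRCm38.p6, chr19:36119845-36120094, minus strand, 5′ to 3′ as transcribed, with both matches, which read GGAATG on this strand, the reverse complement of the motif, in capitals at 210 and 123 bases before the start.
Ankrd1: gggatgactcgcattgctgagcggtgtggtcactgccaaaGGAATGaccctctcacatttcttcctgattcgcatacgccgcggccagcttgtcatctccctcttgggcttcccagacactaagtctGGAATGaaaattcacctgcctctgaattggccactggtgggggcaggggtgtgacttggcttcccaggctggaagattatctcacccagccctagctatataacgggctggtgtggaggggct
Over the members as a whole, the share with this motif was close to that of all genes. In windows of 250 bases before to 50 bases after the start, searched on both strands, CATTCC was found in 20 of the 116 members with a promoter in the RefSeq table (17.2%) and in 16.6% of all 27025 genes. The remaining 48 members had no entry.

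Adhesion and membrane organisation covered 24 members, which summed to 26.5, 29.4, 167 and 123 CPM. Cadherins of different tissues were split. Cdh11, OB-cadherin of mesenchymal cells, had 5.76, 7.33, 38.1 and 26.1 CPM, Cdh2, N-cadherin, had 1.29, 1.54, 14.7 and 9.27 CPM, and Cdh3, P-cadherin, had 0.882, 0.886, 4.96 and 3.70 CPM. By contrast Cdh1, the epithelial E-cadherin, was at 0.00, 0.65, 0.90 and 0.56 CPM and was no member. Gja1, the gap junction protein connexin 43, had 2.18, 3.19, 10.3 and 11.5 CPM. The tight junction and immunoglobulin-type adhesion genes Cxadr with 1.94, 1.77, 11.8 and 7.14 CPM, Cadm4 with 2.35, 2.66, 12.9 and 11.6 CPM and Jam3 with 0.706, 0.532, 3.95 and 2.33 CPM were members as well. Podxl, the sialomucin podocalyxin, had 1, 5, 61 and 41 counts and a ratio of 7.03. In the list of 55 adhesion and junction genes, 9 were members, and the other 24 tested had a median fold change, on the log2 scale, of 0.35, with 0 called by the quasi-likelihood test, 4 higher and 1 lower at an unadjusted p under 0.05, 0 higher and 1 lower by the exact test, and 1 higher and 1 lower by DESeq2.

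Signalling genes were the largest class by number, with 32 members that summed to only 24.6, 26.2, 181 and 128 CPM. Among ligands, Wnt4 had 1.41, 0.295, 14.6 and 6.58 CPM, and its WT libraries themselves differed, with 24 and 5 counts. Sema3a, a repulsive guidance ligand, had 0.765, 0.650, 6.52 and 4.15 CPM, and Slit3, the ligand of Robo receptors, had 0.470, 0.473, 3.35 and 2.79 CPM. C1qtnf1, a secreted protein of the C1q and TNF family, had 0.941, 1.36, 5.74 and 5.22 CPM. Wisp1, a matricellular protein induced by Wnt signalling and counted under matrix, had 0.412, 0.473, 5.02 and 5.27 CPM and a ratio of 10.6. Igfbp3, a carrier of insulin-like growth factors, had 0.588, 0.177, 6.28 and 3.19 CPM.

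Receptors were more numerous than ligands. Osmr, the receptor chain for oncostatin M that stromal cells carry, had 2.23, 3.78, 12.3 and 14.8 CPM. The receptor tyrosine kinases Ephb4 with 0.294, 0.532, 2.69 and 2.03 CPM, Flt4 with 3, 5, 31 and 25 counts and the pseudokinase Ptk7 with 0.647, 0.768, 4.54 and 2.33 CPM were members. Fgfr2 had 1.12, 0.650, 4.84 and 3.49 CPM, but its locus in the file spans a stretch that holds over 20 other counted genes, and its values are uncertain for that reason. Gas1, a Hedgehog co-receptor, had 1.94, 1.71, 16.2 and 9.22 CPM. Evc and Evc2, neighbours on chromosome 5 whose products act together at the base of the primary cilium in Hedgehog signalling, had 8, 2, 24 and 28 and 2, 4, 27 and 26 counts. Unc5b, a netrin receptor, had 0.941, 1.24, 7.35 and 4.56 CPM, and Gpr39, a zinc-sensing receptor, 1.18, 1.71, 9.33 and 5.92 CPM. Gpr176, an orphan G protein-coupled receptor, stood out by its ratio of 20.7, with 5, 1, 145 and 120 counts.

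Inside the cell, Grb10, an imprinted adaptor that dampens insulin receptor signalling, was the most counted signalling member with 2.94, 3.96, 24.3 and 16.8 CPM. Members of the list of 28 imprinted genes were Grb10, Dcn, the long non-coding RNA Rian with 8, 8, 30 and 32 counts and Ndn, necdin, with 11, 9, 37 and 44 counts. The other 9 genes of that list tested had a median fold change, on the log2 scale, of 0.18 and 7 of them were above 0. The quasi-likelihood test called 0, with 3 higher and 1 lower at an unadjusted p under 0.05, 1 higher by the exact test and 0 by DESeq2. H19 had the largest of the other log2 changes, 4.59 (adjusted p = 0.30, edgeR quasi-likelihood).

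Pathway lists around these genes gave few calls. Of 54 Wnt genes 3 were members (Wnt4, Wisp1 and Ptk7), and the other 20 tested had a median fold change, on the log2 scale, of 0.74, with 17 above 0, 7 higher at an unadjusted p under 0.05 and 0 called by any of the 3 tests. For 72 genes of receptor tyrosine kinases and their ligands, 6 were members, and the 30 others tested, without 1 that met the rule and was left out, had a median log2 change of 0.29, with 6 higher at an unadjusted p under 0.05, 0 called by the quasi-likelihood or exact test and 1 by DESeq2. In the 36 axon guidance genes, 4 were members (Slit3, Sema3a, Unc5b and Dpysl3), the other 14 tested had a median log2 change of 0.35, 3 were higher at an unadjusted p under 0.05 and none of the 3 tests called any. TGF-beta and BMP signalling, with 46 genes and 2 members, had a median log2 change of 0.43 over the other 25 tested. Of these, 5 were higher at an unadjusted p under 0.05 and 0 were called by any of the 3 tests. Hedgehog and Notch signalling, with 26 genes and 1 member, had a median log2 change of 0.32 over the other 10, 2 of them higher at an unadjusted p under 0.05 and again 0 called.

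Transcription and RNA-binding factors numbered 16 and summed to 9.53, 8.80, 51.7 and 42.6 CPM. Sox4, a factor of progenitor cells, had 1.23, 1.24, 6.94 and 5.17 CPM, and Nfib 0.235, 0.709, 4.01 and 3.70 CPM. Wt1, a factor of mesothelium, kidney and gonad, had 1.41, 1.06, 5.20 and 4.51 CPM, and Gata5, of heart and gut mesoderm, had 6, 6, 65 and 26 counts. Barx1, a homeobox factor of stomach and facial mesenchyme, had 6, 4, 27 and 45 counts. Tshz2 had 3, 5, 45 and 32 counts and Hic1, a repressor of quiescent mesenchymal cells, 7, 8, 27 and 48 counts. These factors differ in the tissues they are known from, and all had low counts. A list of 97 mesenchymal and patterning factors held only 1 member, Nfib. Its other 21 tested genes had a median log2 change of 1.13, with 19 above 0 and 7 higher at an unadjusted p under 0.05, while the quasi-likelihood test called 0, the exact test 1 and DESeq2 1. Between 28 and 50 of the 97 were at 0 counts in a library.

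**Figure D2:**
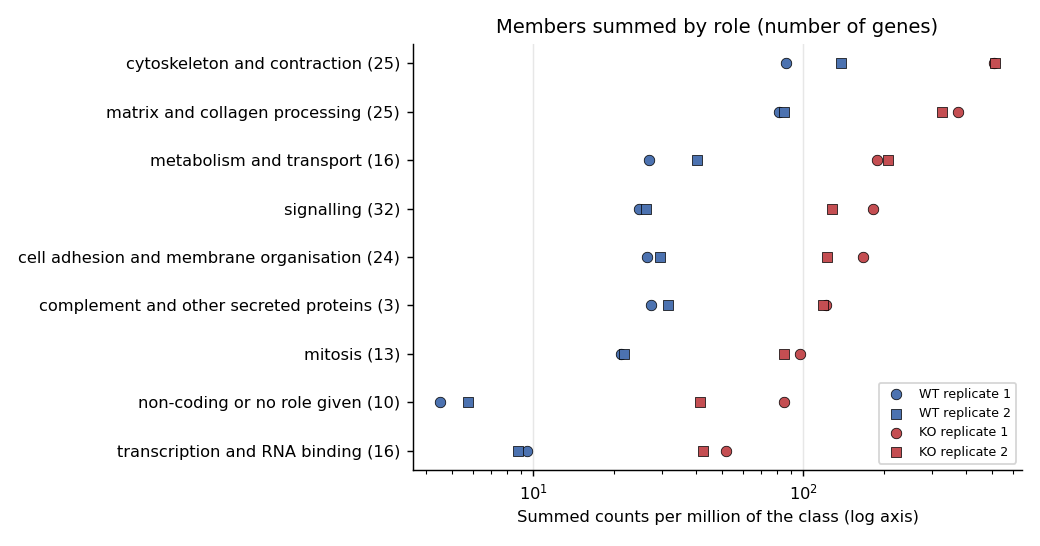
Summed CPM (log axis) of the members in each class of function, with the number of genes in brackets and 1 point per library. The KO points lie to the right of the WT points in all 9 classes because of the rule, and in 7 of the classes KO replicate 2 lies to the left of KO replicate 1.

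Cell division was represented by 13 members that summed to 21.2, 21.7, 97.3 and 85.0 CPM. Pttg1, securin, which holds back the separation of sister chromatids, had 5.00, 4.67, 20.8 and 24.3 CPM. The cyclins Ccna2 and Ccnb2 had 3.12, 3.07, 15.7 and 9.62 CPM and 1.65, 1.3, 6.88 and 5.42 CPM. Plk1, the polo-like kinase of mitotic entry, had 0.882, 1.3, 5.26 and 3.90 CPM, and Cdc20, which activates the anaphase-promoting complex, 1.88, 1.48, 6.70 and 5.77 CPM. Of the spindle and cytokinesis genes, Anln, anillin of the contractile ring, had 2.76, 3.25, 15.1 and 11.2 CPM, Prc1, which bundles the midzone, 2.29, 2.19, 7.06 and 6.94 CPM, and the kinesins Kif2c, Kif4 and Kif15 had 1.00, 0.827, 4.07 and 3.65 CPM, 0.765, 0.886, 2.99 and 2.79 CPM and 0.529, 0.532, 2.21 and 1.92 CPM. Cenpf, a kinetochore protein, had 8, 25, 108 and 108 counts. Both WT libraries held each of these transcripts. Cdc20, Ccna2 and Kif4 overlap Elovl1, Exosc9 and Pdzd11, which had 4755, 1303 and 1426 KO counts, more than the members themselves, so their counts are less certain if reads were not assigned by strand.

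The list of 28 proliferation genes contained 5 of these members, and all 5 act from the G2 phase to mitosis. No DNA replication gene of the list was a member. The 6 Mcm helicase subunits had log2 fold changes between 0.27 and 0.95 (adjusted p between 0.45 and 0.94), and Pcna, the replication clamp, -0.49 (adjusted p = 0.90), all by edgeR quasi-likelihood. Nearer to the members were mitotic genes outside the rule, Kif20a with a log2 change of 1.70 (adjusted p = 0.27), Top2a with 1.67 (adjusted p = 0.22) and Cenpe with 1.63 (adjusted p = 0.30). Over the 23 other genes the median log2 change was 0.78, 21 were above 0 and 11 were higher at an unadjusted p under 0.05. The quasi-likelihood test called 0 of the 23, the exact test 1 and DESeq2 2. Mki67, the common proliferation marker, had 5.18, 30.4, 28.2 and 31.4 CPM, so WT 2 lay between the KO libraries.

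Promoters of the mitotic members shared a sequence feature that the rule did not use. The cell cycle genes homology region (CHR), with the core TTTGAA, is the site through which MuvB complexes act on genes of G2 and mitosis. Searched on both strands in the same windows, it was found in 10 of the 12 mitotic members with an entry (83.3%), in 22 of all 116 members (19%) and in 20.2% of all 27025 genes. The CCAAT box, which often lies beside it, was found in 8 of the 12 (66.7%), against 37.1% of members and 41.1% of all genes. Both motifs were chosen after the members were known, for this class, and the shares are a description. The promoters of 3 of these genes are shown, each as the 250 bases before the RefSeq start on GRCm38.p6 and 5′ to 3′, with TTTGAA or its reverse complement in capitals. They are chr3:159495183-159495432 of Depdc1a, chr9:122950831-122951080 of Kif15 and chr7:80294226-80294475 of Prc1, all on the plus strand, and the matches begin 16 bases before the start in Depdc1a, 234 and 19 in Kif15 and 30 in Prc1.
Depdc1a: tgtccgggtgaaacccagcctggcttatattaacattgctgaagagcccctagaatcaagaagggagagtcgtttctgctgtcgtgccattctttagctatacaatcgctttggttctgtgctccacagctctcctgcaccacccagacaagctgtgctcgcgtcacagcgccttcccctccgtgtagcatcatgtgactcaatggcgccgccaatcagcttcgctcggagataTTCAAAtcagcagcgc
Kif15: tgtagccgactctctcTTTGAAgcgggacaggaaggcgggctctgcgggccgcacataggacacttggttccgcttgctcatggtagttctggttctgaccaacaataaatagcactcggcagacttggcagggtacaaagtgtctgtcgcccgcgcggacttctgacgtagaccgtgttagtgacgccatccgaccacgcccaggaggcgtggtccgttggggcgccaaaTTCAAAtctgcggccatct
Prc1: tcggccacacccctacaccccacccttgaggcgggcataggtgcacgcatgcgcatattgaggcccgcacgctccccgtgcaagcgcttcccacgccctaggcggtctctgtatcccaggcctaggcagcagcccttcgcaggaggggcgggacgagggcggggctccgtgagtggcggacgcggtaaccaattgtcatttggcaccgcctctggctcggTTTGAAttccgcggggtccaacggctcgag
In the 3 genes shown, a match lay within 30 bases of the start. Positions in the other mitotic members are not given here, so this describes these 3 alone. Depdc1a, a gene of mitotic cells, had 0.529, 0.354, 2.39 and 2.63 CPM in the 4 libraries.

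Over all members, the other motifs had these shares. The TATA box, TATAAA, was found in 9.48% of members and 15.7% of all genes. The AP-1 site TGANTCA was in 9.48% against 8.97%, the E-box CACCTG bound by SNAI and ZEB factors in 18.1% against 22.6%, and the E-box CAGCTG of other helix-loop-helix factors in 15.5% against 18.3%. A match of so few letters describes the window and is not a site of binding.

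**Figure D3:**
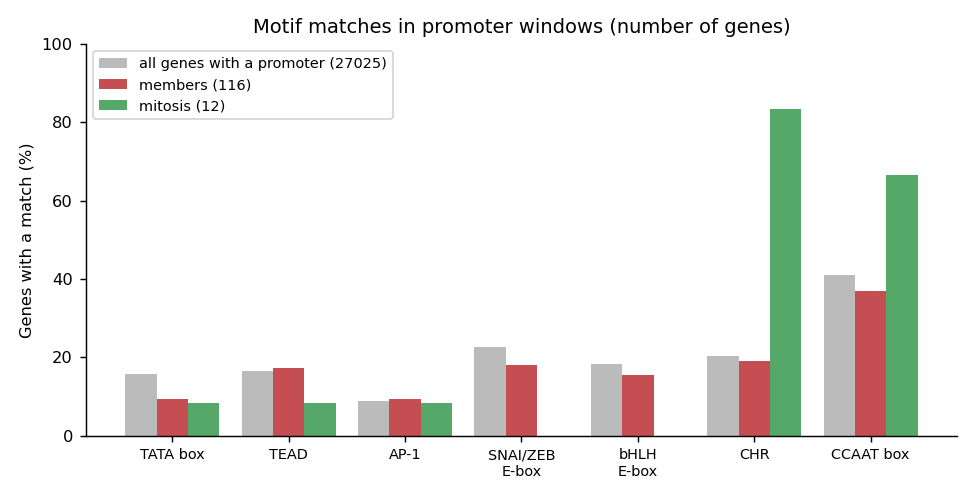
Percent of genes with at least 1 match in the promoter window, for 7 motifs and 3 sets of genes: all genes with a RefSeq promoter (grey), the members with one (red) and the mitotic members (green). Green bars reach 83.3% for CHR and 66.7% for the CCAAT box, while the red bar is above the grey bar for 2 of the 7 motifs, TEAD and AP-1.

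Secreted and metabolic genes completed the set. C1s1, the serine protease C1s of the complement cascade, had 7.65, 8.39, 31.7 and 31.2 CPM. Clu, the secreted chaperone clusterin, had 8.41, 9.04, 35.0 and 29.1 CPM, and Enpp2, autotaxin, which makes lysophosphatidic acid, had 11.2, 14.2, 54.8 and 58.6 CPM. The list of 25 complement and serum genes, which holds these genes, had 4 members. The other 13 genes tested had a median fold change, on the log2 scale, of -0.26, with 2 higher and 3 lower at an unadjusted p under 0.05, 0 called by the quasi-likelihood or exact test and 1 higher by DESeq2.

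Cyp1b1, a cytochrome P450 that hydroxylates steroids and retinoids, had 11.6, 21.9, 65.9 and 73.5 CPM. Agpat4, which acylates lysophosphatidic acid, had 1.59, 4.67, 41.1 and 66.7 CPM and a ratio of 8.81, and its relatives Agpat1, Agpat2, Agpat3 and Agpat5 were not members. Abat, GABA transaminase, had 1, 0, 26 and 20 counts and was at least 5.71-fold higher in both KO libraries than 3 counts in a WT library. Clca3a2 had 3.06, 3.07, 20.9 and 16.2 CPM. Its close relative Clca3a1 had under 1 CPM in every library, so the sum of both kept nearly the same ratio, 5.44 against 5.27. Ugt1a6b, which shares its last exons with the rest of the Ugt1a cluster, had 1.23, 2.07, 12.5 and 6.68 CPM, and summed with Ugt1a6a the ratio fell from 3.23 to 1.70.

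Among the largest ratios were genes that were given no role in the classes used here. Gm26920 had 1, 0, 43 and 49 counts and was at least 14.0-fold higher, and it overlaps the zinc finger genes Zfp82 and Zfp566 on the same strand. 9930111J21Rik2, a gene of chromosome 11 outside the window left out, had 0.470, 0.354, 41.9 and 10.1 CPM. Its copy 9930111J21Rik1 had 10.8, 5.67, 15.7 and 4.86 CPM, and summed with it the ratio fell from 21.4 to 1.33. The pseudogene 5830417I10Rik had 0.882, 2.01, 20.7 and 14.4 CPM and a ratio of 7.18. Klhl29 had 0, 2, 32 and 22 counts. Sez6l, which was placed with the signalling genes, had 2, 0, 20 and 20 counts. Tpm3, 9930111J21Rik2 and Ugt1a6b are thus members at their own locus and not when summed with their copy.

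Markers of other cell types were read as whole lists. The 22 fibroblast genes summed to 185, 245, 719 and 615 CPM, and 2 of them were members and 7 were left out by the rule. Fap, Mfap5, Dpt, Pi16 and Mmp2 were under 1 CPM in every library. Lum had 0.24, 0.35, 1.20 and 0.61 CPM and Thy1 0.29, 0.59, 0.66 and 0.76 CPM. Pdgfrb, a receptor of fibroblasts and pericytes, had 0.24, 1.89, 0.96 and 3.70 CPM, so its groups overlapped. Of the fibroblast genes that did not meet the rule, 8 could be tested and had a median log2 change of 1.48. On the same scale Fbln2 had 1.71 and Bgn 1.81, both among the 14 names but under the 3-fold limit (adjusted p = 0.25 for both, edgeR quasi-likelihood). The quasi-likelihood test called 0 of these 8, 4 were higher at an unadjusted p under 0.05, and the exact test and DESeq2 called 2 each.

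Smooth muscle and pericyte genes summed to 11.5, 11.7, 56.6 and 57.0 CPM over 14 genes, and nearly all of this came from Des, Tagln and the left-out Acta2. The defining contractile genes Myh11, Cnn1, Lmod1 and Myocd were each under 1 CPM in every library, as were the pericyte genes Rgs5, Cspg4 and Notch3. For marrow mesenchymal stroma, Nes and Cdh11 were members and Cxcl12 was left out, while Lepr, Adipoq, Ebf3 and Foxc1 were at or near 0. Its list of 12 genes summed to 43.2, 86.3, 95.3 and 106 CPM, a large part of it from Kitl with 29.9, 14.7, 27.4 and 11.7 CPM and Vcam1 with 2.41, 59.8, 7.06 and 48.4 CPM, both of which overlapped between the genotypes. Prrx1, a mesenchymal homeobox factor, had a log2 fold change of 1.32 (adjusted p = 0.45) and Grem1 1.88 (adjusted p = 0.58), while Kitl had -0.37 (adjusted p = 0.96) and Vcam1 -0.27 (adjusted p = 0.99), all by edgeR quasi-likelihood.

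A mesothelial list of 19 genes was added after Upk3b, Wt1 and Gata5 were seen among the members, and gets no test. Upk3b, a uroplakin of mesothelium, had 1.59, 1.24, 9.21 and 5.52 CPM. Outside the members, Lrrn4 had 3.06, 1.60, 14.1 and 6.33 CPM, Gata6 2.23, 1.71, 10.8 and 6.23 CPM, and Bnc1 0.65, 0.41, 2.75 and 1.82 CPM. Other defining genes went differently, since Msln was at 1.35, 0.95, 0.36 and 0.61 CPM, Krt18 at 2.29, 1.77, 0.60 and 0.96 CPM, and Muc16 had at most 1 count in a library. The list summed to 29.0, 28.4, 77.7 and 49.6 CPM. The antisense member 1010001N08Rik lies over Gata6, which had 304 KO counts against 37.

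Lists of further lineages held no member apart from Tubb3 in the neuronal list, and the interferon response and chemokine lists held none. The interferon response list summed to 382, 1236, 314 and 623 CPM, so WT 1 lay below KO 2 and the genotypes overlapped. The 24 interferon response genes tested had a median log2 change of -1.26, with 1 above 0. None was called by the quasi-likelihood test (0 of 24), 7 were lower and 0 higher at an unadjusted p under 0.05, and the exact test called 2 lower and DESeq2 5. The list of 46 chemokines and cytokines summed to 1671, 9105, 958 and 4315 CPM, and here too WT 1 lay below KO 2. The 36 tested that did not meet the rule had a median log2 change of -0.74 with 10 above 0. By the quasi-likelihood test 0 of these were called, 2 were higher and 4 lower at an unadjusted p under 0.05, the exact test called 1 higher and 2 lower, and DESeq2 called 0 higher and 2 lower. Chondrocyte and skeletal muscle lists stayed under 3 CPM in sum in every library, and epithelial genes summed to 8.53, 9.69, 7.53 and 7.09 CPM. Glial and Schwann genes summed to 37.8, 35.8, 64.7 and 46.1 CPM, most of it from Mbp, which blood cells also transcribe, and Sox10 and S100b were at 0 counts in every library. Endothelial genes summed to 32.3, 23.9, 64.3 and 38.2 CPM, most of it from Vwf. Lists of blood cells other than macrophages differed in direction. Dendritic cell genes summed to 261, 385, 451 and 452 CPM, most of it from Itgax, which macrophages also carry, and 4 of the 6 tested were above 0, with 0 called by any of the 3 tests and 0 at an unadjusted p under 0.05. Mast cell and basophil genes summed to 110, 99.5, 51.1 and 55 CPM, B cell genes to 42.3, 45.3, 26.9 and 27.8 CPM, neutrophil genes to 42.7, 62.5, 28.4 and 35.7 CPM and erythroid genes to 11.6, 7.92, 2.33 and 3.09 CPM. The quasi-likelihood test called 0 genes of the last 4 lists, with 4, 3, 2 and 2 lower at an unadjusted p under 0.05, while the exact test called 1, 0, 2 and 1 lower and DESeq2 3, 0, 2 and 1. Megakaryocyte genes summed to 215, 140, 90.6 and 115 CPM and eosinophil genes to 13.1, 12.0, 10.2 and 8.96 CPM. The osteoblast, adipocyte, skeletal muscle, T and NK cell and macrophage sums overlapped between the genotypes. In all, the summed level was higher in both KO libraries than in both WT libraries for 9 of the lists and lower for 7. The sums of several marker lists thus differed between the libraries, and the part of cell composition in the members' values was not tested.

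**Figure D4:**
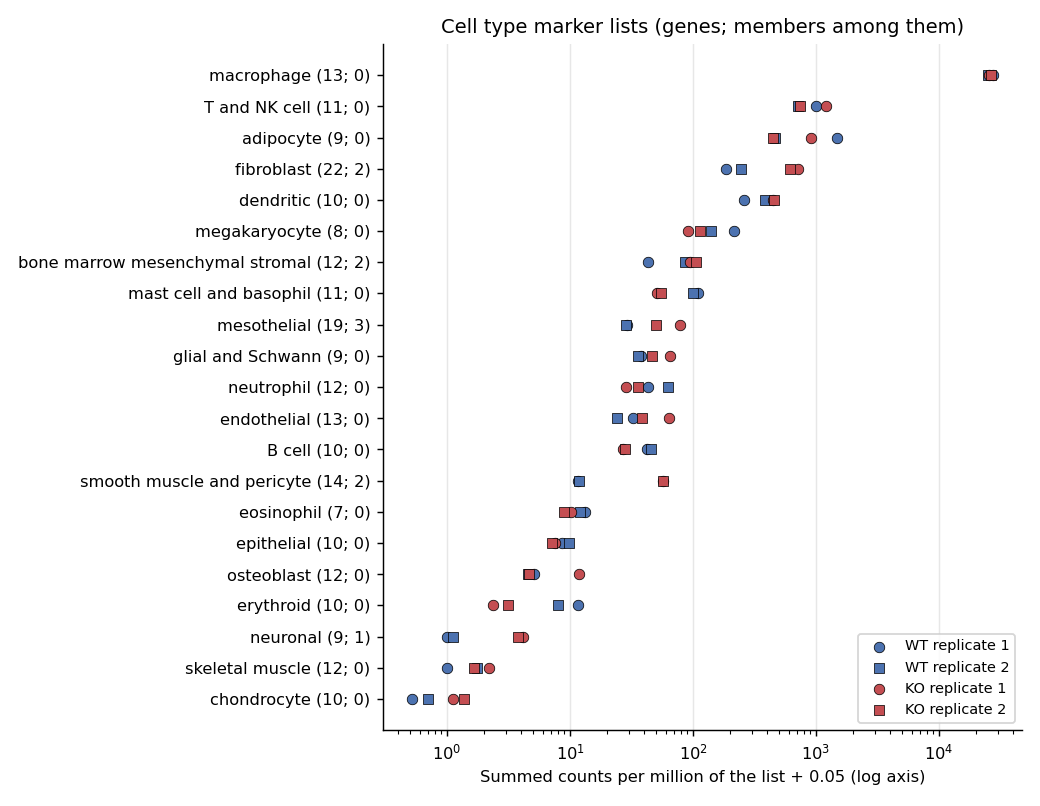
Summed CPM plus 0.05 (log axis) of 20 cell type marker lists and the added mesothelial list, with the number of genes and of members in brackets and 1 point per library. Macrophage genes lie at 25267 to 27734 CPM in all 4 libraries, 9 lists have both KO points to the right of both WT points (fibroblast, marrow stromal, smooth muscle, chondrocyte, endothelial, glial, neuronal, dendritic and mesothelial), and 7 have them to the left (mast cell, B cell, neutrophil, eosinophil, erythroid, megakaryocyte and epithelial).

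The members also varied between the KO libraries. With library totals, 136 of 164 (82.9%) were lower in KO 2 than in KO 1, against 64.8% of all genes with at least 1 CPM in both, and the median log2 ratio was -0.34 against -0.15. With TMM-scaled totals 110 members (67.1%) were lower in KO 2, against 49.4% of the same background genes, and the medians were -0.18 and 0.0073. Signalling members had the lowest class median, -0.50, and the 3 secreted proteins the highest, -0.023. Among single genes the widest drops from KO 1 to KO 2 were in 9930111J21Rik2, Gata5, Sdpr and Wnt4, at -2.05, -1.55, -1.17 and -1.15, and the widest rises in Strip2 and Agpat4, at 0.77 and 0.70. A total of 160 members differed by less than 2-fold between the KO libraries. The standard deviation of the log2 ratio was 0.41 for members and 0.64 for the background genes. The rule bears on this, since it selects on the lower KO value. The 18 genes left out had a median log2 ratio of -0.36, close to that of the members. With 2 libraries per genotype, the library and any other source of this shift cannot be told apart.

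**Figure D5:**
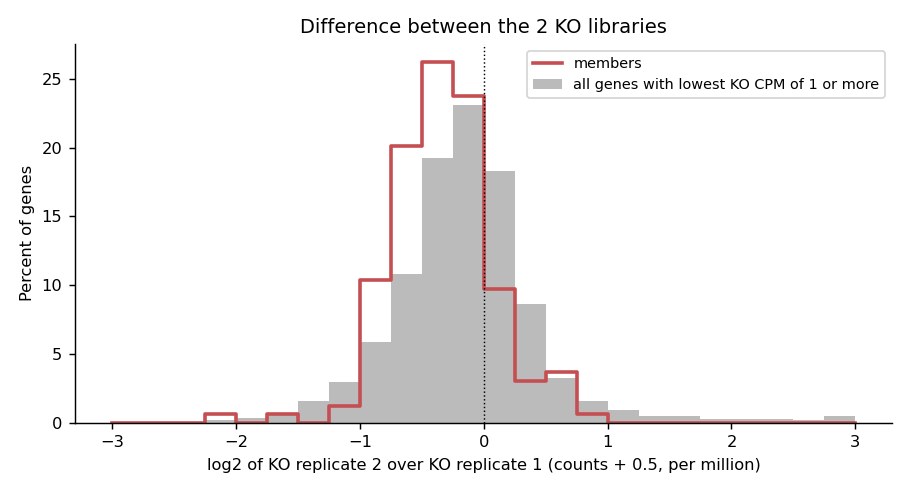
Distribution of the log2 ratio of KO replicate 2 to KO replicate 1 in bins of 0.25, for the 164 members (red line) and for all 11304 genes with at least 1 CPM in both KO libraries (grey bars), on library totals. The dotted line marks equal levels, and 82.9% of members against 64.8% of all genes lie to its left.

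In the genome the members were scattered. They lay on all 19 autosomes and the X chromosome, with 9 on X (5.49%, against 3.23% of the background genes). Only 3 pairs of neighbours were within 100 kb of each other, P3h4 and Fkbp10, Scara3 and Clu, and Evc and Evc2. By annotation, 160 were protein coding, 3 were processed transcripts and 1 was an unprocessed pseudogene. Their median length, implied by the counts and FPKM values, was 5722 bases, against 5382 over the background genes. Another gene with counts overlapped 34 members, and in 18 of them it had at least 0.1 times the member's KO counts.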

How the data were processed

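RNA-seq libraries of BMDMs (2 WT, 2 KO) were analysed. The authors filtered reads with Seqtk, aligned them with HISAT2 2.0.4 and counted fragments per gene with StringTie 1.3.3b. The deposited table gives each of 34745 genes a raw whole-number count per library and the authors' FPKM value. The submitters' notes name the build mm39, but 123 of the 164 members had the start and end of GENCODE M21 on GRCm38, so positions are given on GRCm38. Whether counting used the strand is not given in the sources used here.

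CPM were computed on library totals. Counts were fitted in R 4.3.3 with edgeR 4.0.16 (filterByExpr, TMM, glmQLFit and glmQLFTest, genotype as the only term, two-sided, Benjamini-Hochberg over 12418 genes). Calls needed both an adjusted p under 0.05 and a log2 fold change past 1. The edgeR exact test, DESeq2 1.42.0, other scalings, filters, limits and each library left out were tried as alternatives. The code was tested on simulated data. Members, lists and tests were chosen with earlier results of these data known, and no p-value is given for a member. Members were named if they were among the 10 highest in mean KO CPM, the 10 largest ratios (0.5 counts added), the 2 highest of a gene list or the 3 nearest to the limit, and others by role. Lists were written by hand. P-values measure the spread between the deposited samples, which may be technical. Counts per library, 16724241 to 19747909, put 3 counts at 0.152 to 0.179 CPM. Promoters came from the RefSeq table, GRCm38.p6, matched by symbol for 116 members. No sample was left out. Some members are not reported here by name.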

Additional observations from a re-analysis of the deposited data

How the results depend on the processing

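The number of members, 164, moved with each limit. It was 339 at a fold of 2 and 40 at a fold of 5, 225 at a floor of 0.5 CPM and 55 at 5 CPM, 128 with TMM-scaled totals and 120 with DESeq2 size factors. Within replicate number 1 alone it was 543 and within number 2 alone 293, and leaving out 1 library gave 187 to 381: 262 without WT 1, 283 without WT 2, 187 without KO 1 and 381 without KO 2.

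Calls over all genes were 0 by the quasi-likelihood test, 181 by DESeq2, 174 by the exact test, and 0 to 1 when a library was left out, with 1 without WT 1 and 1 without WT 2. In the gene lists, calls outside the members went from 0 to 37 by DESeq2, 27 by the exact test and 0 to 1 when a library was left out. With the replicate block, 664 genes were called, 113 of them list genes outside the members. Without the genes that met the rule and were left out, a choice made after seeing the data, the list calls were 28 by DESeq2, 18 by the exact test and 104 with the block. The labels do not say that a number marks a shared origin, and with 2 pairs the deviations of same-numbered samples had a correlation of 0.71 across 12418 genes. The cause of these differences was not tested. The rule fixes the direction of the members' fold changes, so their sign says nothing about stability, and their fitted values moved past the spread between replicates in 162 refits and stayed within it in 1314. Counting the 18 genes left out with the members moved their share of the counts to 0.0396%, 0.0486%, 0.235% and 0.203%. List medians moved past that spread in 57 refits and stayed within it in 258. Members with few WT counts are limited by depth: 13 had at most 3 counts in each WT library.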
